A study of Homo sapiens with 6 samples.

Results

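Kinesins are the motor proteins that walk along microtubules with energy from ATP. One group of them builds the mitotic spindle, aligns and separates chromosomes and completes cell division, and its mRNAs are known to be made mainly in the G2 and M phases of the cell cycle. Another group carries vesicles, mitochondria and other cargo in cells that do not divide as well as in cells that do. In the epidermis, mitotic kinesins are a sign of cycling keratinocytes (KCs), which lie in the basal layer.

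The kinesin genes were chosen by their symbol (KIF followed by a number and an optional letter, or KIFC followed by a number). Of 42 kinesins named in 4 classes, 32 had values among the 22152 genes of the table: 14 mitotic kinesins, 11 transport kinesins, 5 kinesins linked to cilia and centrioles, and KIF21A and KIF26A. The other 10 (KIF1A, KIF2B, KIF5A, KIF5C, KIF12, KIF17, KIF19, KIF21B, KIF25 and KIF26B) were not analysed here. All 32 passed the filter on low values, which asked for a normalised read count of at least 10 in at least 3 libraries and left 14795 genes. All 13754 genes with an ID below the lowest one listed at 0 in all libraries passed too. Passing therefore does not set the kinesins apart.

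The data are polyA RNA-seq profiles of HaCaT, a human keratinocyte line that became immortal spontaneously and that divides in culture. Cells received a synthetic miR-21-3p mimic or a negative control (NC) mimic, each at 1 nM, and RNA was taken 48 h later. There were 3 biological replicates per group. Every value below is a read count per gene divided by its library's size factor (a normalised read count), and the libraries held between 24.4 M and 28.0 M reads (M, mega) in the genes of the table. KRT5, the basal keratin, stood at a mean of 130700 ± 8021 in NC and 133000 ± 7211 in miR-21-3p cells (SD, n = 3), and 16 of 17 keratinocyte markers had values.

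One control library stood apart from the other controls in the mitotic kinesins. NC replicate 2 held the highest NC value for 13 of the 14 mitotic kinesins, and NC replicate 1 held the lowest value of all 6 libraries for 14 of 14. Over all genes tested, NC replicate 2 was the highest NC library for 36.9% of genes, and NC replicate 1 was the lowest of all 6 libraries for 26.2%, more than any other library. On the log2 scale, the median mitotic kinesin lay at -0.13, 0.16 and -0.03 in NC replicates 1, 2 and 3 relative to each gene's NC mean, and at 0.30, 0.27 and 0.35 in miR-21-3p replicates 1, 2 and 3. NC replicate 2 was thus nearer to the miR-21-3p libraries than the other controls were, and results are also given without it and without each other library.

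Most mitotic kinesin mRNAs were higher in miR-21-3p cells. Of the 14 mitotic kinesins, 12 rose and none fell at an adjusted p below 0.05 (limma, Benjamini-Hochberg over all genes tested), with a median log2 fold change of 0.31. The count of 12 depended on single libraries: it was 5 without NC replicate 1, 13 without NC replicate 2, 1 without NC replicate 3, and 4, 10 and 3 without miR-21-3p replicates 1, 2 and 3. In the same order, these fits called 2.44%, 11.3%, 1.01%, 1.10%, 6.39% and 1.47% of all genes tested higher. Of the 11 transport kinesins, 0 passed in either direction by limma, and their median log2 fold change was -0.01. Over all genes tested, 6.25% were called higher and 4.85% lower, with a median log2 fold change of 0.0044. In these cultures, more dividing cells and more kinesin mRNA per cell cannot be told apart. The difference between the classes was not itself tested.

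**Figure D1:**
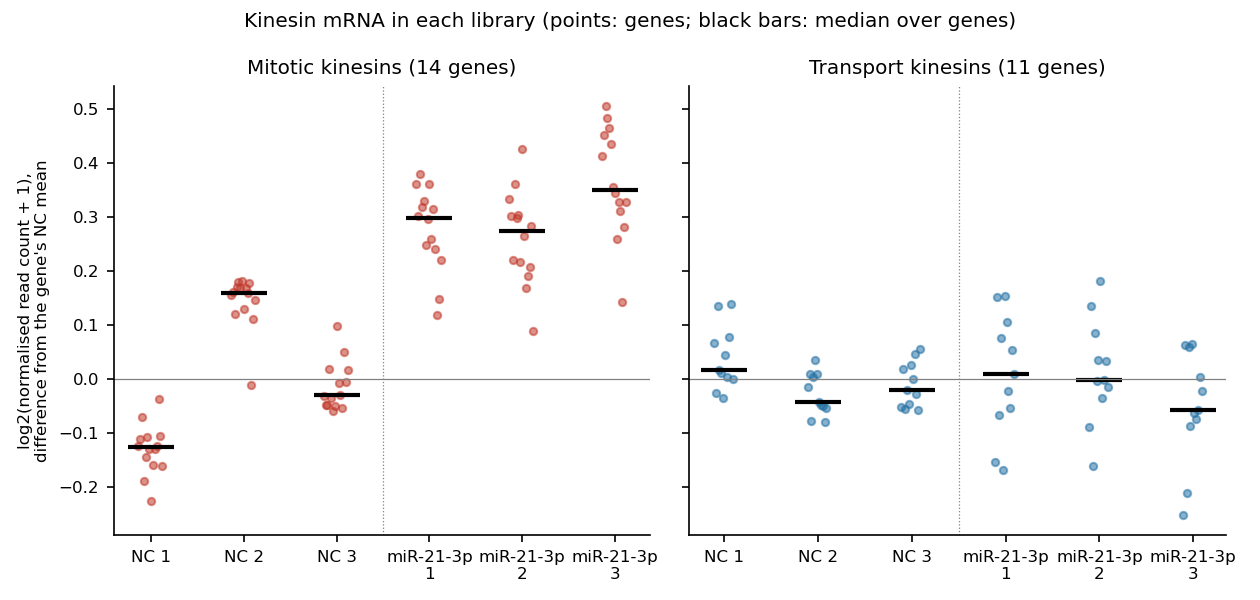
Each point is 1 kinesin gene in 1 library, as the difference of its log2(normalised read count + 1) from the gene's mean over the 3 NC libraries, and black bars are medians over genes. The 14 mitotic kinesins (left) lie higher in the 3 miR-21-3p libraries, with NC replicate 2 in between, and the 11 transport kinesins (right) scatter around 0 in all 6 libraries.

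In the values themselves, the miR-21-3p and NC libraries did not overlap, with miR-21-3p higher, for 13 of the 14 mitotic kinesins, against 16.5% of all genes tested. Among transport kinesins this held for 3 of 11 (KIF5B, KIF1B and KIF3A). The opposite order, every miR-21-3p library below every NC library, was found for 1 transport kinesin, KIF13B, and for 14.8% of all genes tested. Summed over the class, mitotic kinesins came to 28561, 34553 and 30676 normalised reads in NC replicates 1, 2 and 3 and to 37771, 37054 and 39979 in miR-21-3p replicates 1, 2 and 3. The transport kinesins summed to 32938, 31662 and 32305 in NC and to 32945, 33044 and 31857 in miR-21-3p cells. The ratio of the first sum to the second was 0.969 ± 0.113 in NC and 1.17 ± 0.071 in miR-21-3p cells (SD, n = 3), and the libraries nearest to each other across the groups were NC replicate 2 at 1.09 and miR-21-3p replicate 2 at 1.12.

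The spread between replicates also differed between the classes. The median coefficient of variation of a mitotic kinesin was 10.5% over the NC libraries and 5.7% over the miR-21-3p libraries. For transport kinesins it was 3.3% and 3.2%, and for all genes tested 6.2% and 5.4%.

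Chromokinesins bind chromosome arms and push them toward the spindle equator. KIF22 stood at 2700, 3280 and 2880 normalised reads in NC replicates 1, 2 and 3 and at 3780, 3710 and 3920 in miR-21-3p replicates 1, 2 and 3. The groups did not overlap, and the highest control was NC replicate 2. Its log2 fold change of 0.37 (SE 0.06) had the smallest adjusted p of all kinesins (limma adjusted p = 0.00552), and it was called in each of the 6 fits that left out 1 library, with a highest adjusted p of 0.0436. KIF4A, which also limits the length of the central spindle, read 1250, 1550 and 1320 in NC and 1680, 1590 and 1750 in miR-21-3p cells, in the same replicate order. NC replicate 2 came within 40 reads of the lowest miR-21-3p library, and the log2 fold change was 0.29 (SE 0.07, limma adjusted p = 0.0261). The call of KIF4A was lost without NC replicate 1 or 3 and without miR-21-3p replicate 1 or 3 (highest adjusted p 0.116). KIF4B, an intronless copy of KIF4A, read 277, 355 and 347 in NC and 417, 436 and 412 in miR-21-3p cells, a log2 fold change of 0.38 (SE 0.10, limma adjusted p = 0.0262) that was called only without NC replicate 2 among the fits with a library left out. KIF4A and KIF4B share 606 of their 50-base windows in GENCODE release 29 transcripts, 13.4% of those of KIF4A, so reads may be split between them and the value of each is uncertain.

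Microtubule depolymerases of the kinesin-13 and kinesin-8 families set spindle length and chromosome position. KIF2C, the kinesin-13 of centromeres, read 1780, 2150 and 1860 in NC and 2370, 2370 and 2630 in miR-21-3p cells. All miR-21-3p libraries lay above all NC libraries, with a log2 fold change of 0.35 (SE 0.07, limma adjusted p = 0.0105). Among the fits with 1 library left out, its call was lost only without NC replicate 3 (adjusted p = 0.0628). KIF18A, the kinesin-8 that dampens chromosome movement at metaphase, read 934, 1200 and 1080 in NC and 1330, 1370 and 1490 in miR-21-3p cells. It had the largest log2 fold change of the mitotic class, 0.39 (SE 0.08, limma adjusted p = 0.0141), and lost its call without NC replicate 3 or miR-21-3p replicate 3 (highest adjusted p 0.0663). KIF18B, its relative on astral microtubules, read 1200, 1370 and 1220 in NC and 1640, 1470 and 1790 in miR-21-3p cells, a log2 fold change of 0.37 (SE 0.07, limma adjusted p = 0.0109). Without NC replicate 3 or miR-21-3p replicate 1 it was not called (highest adjusted p 0.0643). KIF2A, a kinesin-13 that also works in interphase cells and neurons, had the smallest change of the class. It read 2700, 2750 and 2870 in NC and 3010, 3200 and 3060 in miR-21-3p cells, and NC replicate 2 was not its highest control. Its log2 fold change of 0.16 (SE 0.05, limma adjusted p = 0.0477) was called in none of the 6 fits with 1 library left out (adjusted p from 0.0531 to 0.129) and in 3 of 12 other settings, so KIF2A lies at the threshold.

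Other motors slide spindle poles apart or together. KIF11 (Eg5), the kinesin-5 that separates the poles, read 3320, 4170 and 3690 in NC and 4440, 4460 and 4440 in miR-21-3p cells. The 3 miR-21-3p libraries lay within 20 reads of each other while the NC libraries spread from 3320 to 4170. The log2 fold change was 0.26 (SE 0.07, limma adjusted p = 0.0290), and of the fits with 1 library left out only that without NC replicate 2 called it (adjusted p = 0.000199; highest of the 6, 0.111). KIF15, which can stand in for KIF11 at the spindle, read 540, 628 and 579 in NC and 644, 708 and 707 in miR-21-3p cells. It did not pass (log2 fold change 0.24, SE 0.07, limma adjusted p = 0.0523), and it passed without NC replicate 2 (adjusted p = 0.0107). KIFC1, the kinesin-14 that pulls poles together and moves toward microtubule minus ends, read 1990, 2410 and 2060 in NC and 2550, 2650 and 2900 in miR-21-3p cells. Its log2 fold change was 0.33 (SE 0.07, limma adjusted p = 0.0156), with the call lost without NC replicate 1 or 3 or miR-21-3p replicate 3 (highest adjusted p 0.0820).

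Kinesins of the midzone and midbody act at the end of mitosis. KIF20A, which brings the chromosomal passenger complex to the midzone, read 3960, 4960 and 4270 in NC and 5500, 5380 and 6040 in miR-21-3p cells. Its log2 fold change was 0.36 (SE 0.08, limma adjusted p = 0.0154), and the call was lost without NC replicate 3 or miR-21-3p replicate 1 or 3 (highest adjusted p 0.0751). KIF23, the motor of centralspindlin, read 3570, 4400 and 3750 in NC and 4600, 4440 and 4830 in miR-21-3p cells. NC replicate 2 reached 4400 against a lowest miR-21-3p value of 4440, and the log2 fold change was 0.25 (SE 0.07, limma adjusted p = 0.0381). Without NC replicate 1 or 3 or miR-21-3p replicate 1 or 3, KIF23 was not called (highest adjusted p 0.153). KIF20B read 2660, 3250 and 2850 in NC and 3620, 3270 and 3650 in miR-21-3p cells, so that NC replicate 2 and miR-21-3p replicate 2 differed by 20 reads. Its log2 fold change of 0.27 (SE 0.07, limma adjusted p = 0.0297) lost its call without the same 4 libraries as KIF23 (highest adjusted p 0.121) and with a replicate block (adjusted p = 0.0531). KIF14, a kinesin of cytokinesis, was the only mitotic kinesin whose groups overlapped, with 1680, 2080 and 1900 in NC and 2190, 2000 and 2360 in miR-21-3p cells. It was not called (log2 fold change 0.21, SE 0.08, limma adjusted p = 0.102), and it was called without NC replicate 2 (adjusted p = 0.00685) or without miR-21-3p replicate 2.

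**Figure D2:**
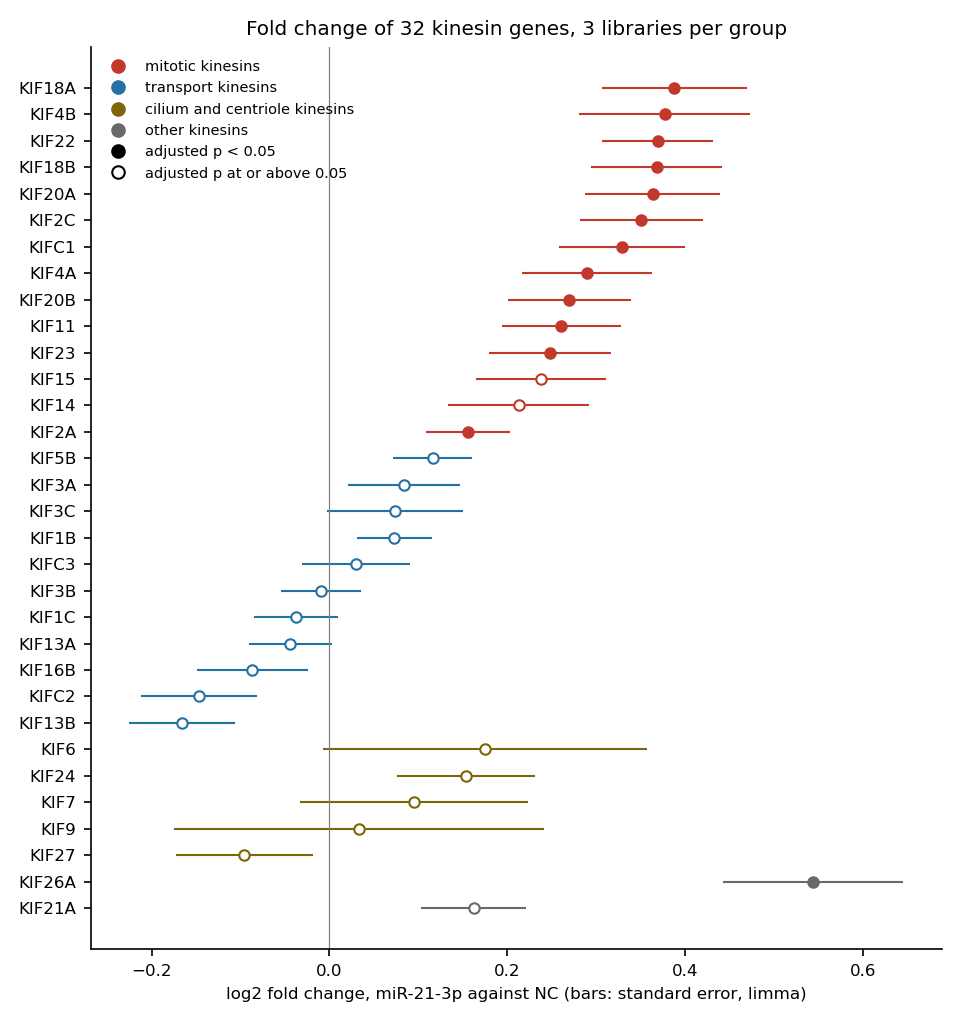
Log2 fold change of miR-21-3p against NC for the 32 kinesin genes with bars of 1 standard error from limma, 3 libraries per group, coloured by class. Filled points passed an adjusted p of 0.05. The 14 mitotic kinesins lie between 0.16 and 0.39 and the 11 transport kinesins between -0.17 and 0.12.

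Transport kinesins did not pass the test. KIF5B, the ubiquitous heavy chain of kinesin-1, read 7890, 8080 and 8130 in NC and 8920, 8820 and 8390 in miR-21-3p cells. All 3 miR-21-3p libraries were higher, by a log2 fold change of 0.12 (SE 0.04, limma adjusted p = 0.102). KIF1C, a kinesin-3 that carries dense core vesicles and other membranes, read 8060, 7380 and 7490 in NC and 7360, 7630 and 7340 in miR-21-3p cells, and the groups overlapped (log2 fold change -0.04, SE 0.05, limma adjusted p = 0.642). KIF3B, a subunit of the kinesin-2 motor of cilia and membrane traffic, read 5240, 5050 and 5450 in NC and 5280, 5190 and 5160 in miR-21-3p cells, which also overlapped (log2 fold change -0.01, SE 0.04, limma adjusted p = 0.911). Its partner KIF3A and the related KIF3C had log2 fold changes of 0.08 (SE 0.06) and 0.07 (SE 0.08).

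Among the other kinesin-3 motors, KIF1B had a log2 fold change of 0.07 (SE 0.04), KIF13A one of -0.04 (SE 0.05) and KIF16B, which moves early endosomes, one of -0.09 (SE 0.06). KIF13B gave the lowest fold change of all 32 kinesins and is named here after its values were seen. It read 1260, 1190 and 1160 in NC and 1080, 1130 and 1010 in miR-21-3p cells, without overlap, and did not pass (log2 fold change -0.17, SE 0.06, limma adjusted p = 0.0875). The kinesin-14 motors KIFC2 and KIFC3 stood at -0.15 (SE 0.07) and 0.03 (SE 0.06). At an unadjusted p below 0.05 there were 3 of 11 transport kinesins (KIF13B, KIF5B and KIFC2) and 28.7% of all genes tested, and no transport kinesin was called by edgeR, DESeq2 or limma-voom either, nor with any library left out. No kinesin of any class was called lower by these 4 tools, and 2 (KIF13B and KIFC2) of 32 were lower at an unadjusted p below 0.05, as were 13.3% of all genes tested. Under other scalings the median of the transport class stayed slightly below 0, and it changed sign to 0.0014 without NC replicate 1 and to 0.0007 without NC replicate 3.

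Of the kinesins outside both classes, KIF26A alone was called, as higher, against 6.25% of all genes tested. KIF26A is an atypical kinesin that binds microtubules without the ATP cycle of its relatives. It read 232, 292 and 244 in NC and 340, 385 and 393 in miR-21-3p cells, with every miR-21-3p library above every control. The log2 fold change of 0.54 (SE 0.10, limma adjusted p = 0.00770) was the largest of all 32 kinesins, and like KIF22 it was called in each fit with 1 library left out (highest adjusted p 0.0490). KIF21A, which pauses microtubule growth at the cell cortex, read 905, 964 and 944 in NC and 1040, 1000 and 1110 in miR-21-3p cells (log2 fold change 0.16, SE 0.06, limma adjusted p = 0.0918). The 5 kinesins of cilia and centrioles (KIF6, KIF7, KIF9, KIF24 and KIF27) had log2 fold changes between -0.10 and 0.18. By limma 0 of them were called, against 6.25% of all genes tested called higher and 4.85% lower. KIF6 and KIF9 were the least abundant members, with values between 39.6 and 98.7, and KIF9 reached its highest value in miR-21-3p replicate 3 alone.

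Over all 32 kinesins, 13 were called higher (40.6%, against 6.25% of all genes tested) and 25 had a positive log2 fold change (51.0% of all genes). Leaving out NC replicate 2 gave 14 higher calls among the kinesins, against 11.3% of all genes tested in the same fit. KIF14 and KIF15 were then called, KIF2A was not, and the median log2 fold change of the mitotic class was 0.40. Leaving out any other library lowered the count. Kinesin calls numbered 6 without NC replicate 1, 2 without NC replicate 3, 5 without miR-21-3p replicate 1, 11 without miR-21-3p replicate 2 and 4 without miR-21-3p replicate 3. Over all genes tested, the same fits called 2.44%, 1.01%, 1.10%, 6.39% and 1.47% higher, so calls went down over the whole table in 4 of these 5 fits. KIF22 and KIF26A were called in all 6 of these fits, while the median of the mitotic class stayed between 0.24 and 0.40.

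**Figure D3:**
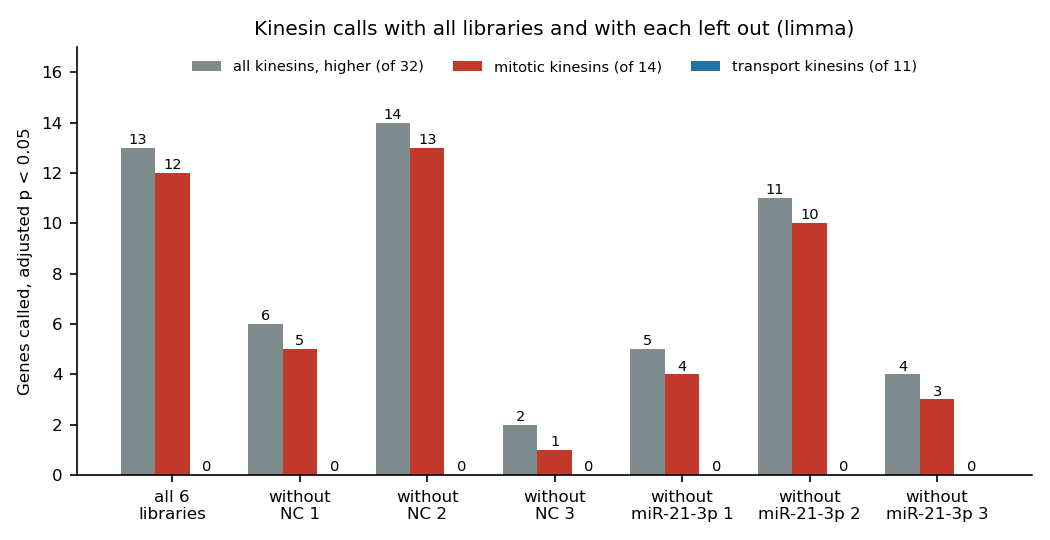
Number of kinesin genes at an adjusted p below 0.05 in limma with all 6 libraries and with each library left out in turn, for all 32 kinesins called higher, the 14 mitotic and the 11 transport kinesins. The mitotic count is 12 with all libraries and ranges from 1 without NC replicate 3 to 13 without NC replicate 2, and the transport count is 0 throughout. In the same 3 fits, 6.25%, 1.01% and 11.3% of all genes tested were called higher.

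Levels of different genes can be compared only per length, so recovered reads were divided by the exon length of each gene in GENCODE release 29, within each group. In NC cells KIF5B was highest, with 53.8 ± 0.861 reads per kilobase per M reads (SD, n = 3), above KIF20A with 43.7 ± 5.29 in every NC library. In miR-21-3p cells KIF5B (58.5 ± 1.58) and KIF20A (56.3 ± 3.99) did not differ beyond their spread, and KIF20A was the higher in miR-21-3p replicate 3. KIF1C (35.05 ± 1.64) and KIF3B (33.8 ± 1.10) came next in NC cells and did not differ beyond their spread, followed by KIF11 (30.2 ± 3.57) and KIF22 (27.0 ± 2.83), of which KIF22 lay below KIF1C and KIF3B in every NC library. In miR-21-3p cells KIF11 stood at 36.1 ± 0.255, KIF22 at 34.8 ± 1.29, KIF1C at 34.2 ± 0.456 and KIF3B at 33.7 ± 0.476. The abundant end of the family thus held both transport and mitotic motors. KIF7, KIF9 and KIF6 were lowest in NC cells, with 0.997, 0.451 and 0.140 reads per kilobase per M reads.

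Promoters of the kinesins were compared because the mitotic members moved together. Genes of G2 and M phase often carry a cell cycle homology region (CHR), with the core letters TTTGAA or, less often, TTCGAA, and CCAAT boxes upstream of it. Both kinds of letters were searched on both strands in RefSeq promoters of 300 bases (250 before to 50 after the start, GRCh38.p14). All 14 mitotic kinesins had a promoter in the table. CHR core letters were found for 11 of 14 mitotic kinesins (78.6%) and 19.5% of all 27305 genes, CCAAT for 11 of 14 (78.6%) and 39.7% of all genes, and both in 1 window for 10 of 14 (71.4%) and 7.8% of all genes. Of their 27 mitotic partners 23 had a promoter in the table, and shares were similar: CHR core letters were found for 78.3% of these, CCAAT for 82.6% and both in 1 window for 69.6%. KIF2A and KIF2C had neither, KIF15 had CHR core letters alone, and KIF20A had CCAAT alone. Only 8 of the 11 transport kinesins had a promoter in the table, under 80%, so a share for that class is void. Of those 8, KIF5B had CHR core letters and 3 had CCAAT. KIF24, of the cilium and centriole class, had both kinds of letters in its promoter and was not called. The 27305 genes include genes that were not tested here. Shares over the 9001 tested genes with a promoter were not computed. A match is a description of the letters and says nothing of binding.

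The promoters below are those of the 3 mitotic kinesins with both kinds of letters and the smallest adjusted p, beside that of KIF5B, the 1 transport kinesin with both. They are written 5′ to 3′ along the gene's strand, with matches of either strand in capitals (ATTGG is CCAAT read from the other strand).
KIF22, chr16:29790501-29790800, plus strand: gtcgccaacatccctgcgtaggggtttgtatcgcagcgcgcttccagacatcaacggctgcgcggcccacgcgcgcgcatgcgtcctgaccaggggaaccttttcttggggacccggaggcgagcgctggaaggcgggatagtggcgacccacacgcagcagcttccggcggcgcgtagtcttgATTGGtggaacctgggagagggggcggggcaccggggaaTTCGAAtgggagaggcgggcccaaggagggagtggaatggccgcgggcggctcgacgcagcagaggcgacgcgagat
KIF18B, chr17:44947724-44948023, minus strand: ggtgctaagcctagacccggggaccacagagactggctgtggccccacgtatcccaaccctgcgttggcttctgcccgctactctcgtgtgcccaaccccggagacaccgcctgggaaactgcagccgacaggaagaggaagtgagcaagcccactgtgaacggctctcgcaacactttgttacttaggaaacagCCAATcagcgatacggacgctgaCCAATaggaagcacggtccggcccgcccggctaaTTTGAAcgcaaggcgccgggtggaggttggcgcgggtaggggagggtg
KIF18A, chr11:28108107-28108406, minus strand: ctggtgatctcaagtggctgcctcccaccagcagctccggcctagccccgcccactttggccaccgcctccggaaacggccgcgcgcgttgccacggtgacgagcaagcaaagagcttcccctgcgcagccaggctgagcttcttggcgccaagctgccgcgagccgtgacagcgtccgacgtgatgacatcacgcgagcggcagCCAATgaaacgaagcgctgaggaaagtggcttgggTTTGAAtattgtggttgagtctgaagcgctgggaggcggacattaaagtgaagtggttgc
KIF5B, chr10:32056376-32056675, minus strand: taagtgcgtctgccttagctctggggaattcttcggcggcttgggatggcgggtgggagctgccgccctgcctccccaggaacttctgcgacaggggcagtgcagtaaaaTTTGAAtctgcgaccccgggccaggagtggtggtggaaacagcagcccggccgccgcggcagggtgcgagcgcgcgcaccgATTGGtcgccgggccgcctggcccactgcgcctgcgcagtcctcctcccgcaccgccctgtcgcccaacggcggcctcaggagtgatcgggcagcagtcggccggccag
In the 3 mitotic promoters the CHR core letters stand downstream of CCAAT, near the start. In KIF5B they stand upstream of it, 140 bases before the start.

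**Figure D4:**
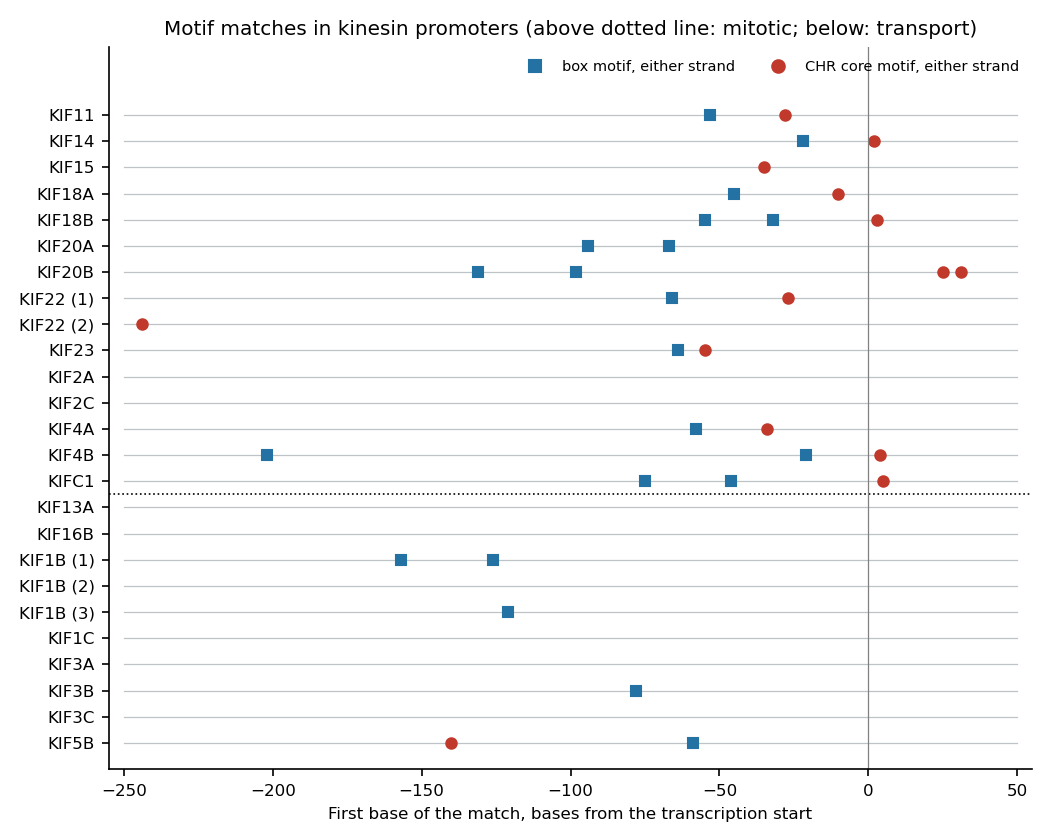
First base of each match to CCAAT (squares) and to the CHR core letters (circles) in the 300-base promoters of mitotic and transport kinesins, in bases from the transcription start, with 1 line per promoter. Over the mitotic kinesins the median position is -61 for CCAAT (16 matches) and -10 for the CHR core letters (13 matches, 1 of them counted in both overlapping windows of KIF22).

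Most genes in a list of partners of mitotic kinesins were called. The list, like the other lists here, was chosen with earlier results of these data known. Of 27 genes of the spindle, the passenger complex, the midzone and mitotic control, 24 were called higher (6.25% of all genes tested) and 0 lower by limma, with a median log2 fold change of 0.34. BIRC5 (survivin), a subunit of the passenger complex that KIF20A relocates, read 2080, 2480 and 2300 in NC and 2900, 2940 and 3190 in miR-21-3p cells (log2 fold change 0.40, SE 0.06, limma adjusted p = 0.00374). CIT, the citron kinase of the midbody that binds KIF14, read 1610, 1890 and 1770 in NC and 2190, 2310 and 2240 in miR-21-3p cells (0.36, SE 0.06, limma adjusted p = 0.00427). CDK1, the kinase of mitotic entry, read 3580, 4490 and 4110 in NC and 5310, 5500 and 5410 in miR-21-3p cells (0.42, SE 0.07, limma adjusted p = 0.00520). In all 3 the groups did not overlap and NC replicate 2 was the highest control, and all 3 were called with each library left out. ECT2, HMMR and NUMA1 were not called, and 1 of the 27 had a negative fold change. The count of 24 went down to 7 without NC replicate 3 (1.01% of all genes) and up to 26 without NC replicate 2 (11.3%). CENPE, the kinesin-7 of kinetochores whose symbol lies outside the rule, read 1720, 2280 and 1950 in NC and 2510, 2240 and 2620 in miR-21-3p cells. Its groups overlapped and it was not called (log2 fold change 0.32, SE 0.10, limma adjusted p = 0.0620), but it was called without NC replicate 2 (adjusted p = 0.000352) or miR-21-3p replicate 2 (0.03945). KIAA1279, the kinesin-binding protein that keeps several kinesins off microtubules, read 1330, 1440 and 1270 in NC and 1530, 1490 and 1680 in miR-21-3p cells and was called (0.22, SE 0.06, limma adjusted p = 0.0384). Without NC replicate 1 or 3 or miR-21-3p replicate 1 or 3 KIAA1279 was not called (highest adjusted p 0.178), nor with a replicate block (0.0738).

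Genes of DNA replication are expressed earlier in the cycle. Of 14, limma called 6 higher, against 6.25% of all genes tested, and 0 lower, with a median log2 fold change of 0.32. TYMS, thymidylate synthase, read 1070, 1290 and 1020 in NC and 1490, 1460 and 1590 in miR-21-3p cells. It had a log2 fold change of 0.43 (SE 0.08, limma adjusted p = 0.00759) and was called with each library left out. GINS2 of the replicative helicase had one of 0.41 (SE 0.09, limma adjusted p = 0.0134) and PCNA, the sliding clamp, one of 0.29 (SE 0.07, limma adjusted p = 0.0176). Both lost their call without NC replicate 3, miR-21-3p replicate 1 or miR-21-3p replicate 3, and PCNA also without NC replicate 1 (highest adjusted p 0.0742 for GINS2 and 0.0912 for PCNA). NC replicate 2 was the highest control for 13 of the 14, the groups did not overlap for 6 (miR-21-3p higher, against 16.5% of all genes), and the median of the list in NC replicate 2 (0.23) lay above that in miR-21-3p replicate 2 (0.21). Without NC replicate 2 all 14 were called (11.3% of all genes), and without miR-21-3p replicate 1 or 3 the count was 1 (1.10% and 1.47% of all genes).

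Of 13 regulators of the cell cycle that were tested, limma called 3 higher, against 6.25% of all genes tested, and 0 lower. E2F2 read 1560, 1710 and 1520 in NC and 2150, 2180 and 2270 in miR-21-3p cells, well apart (log2 fold change 0.46, SE 0.05, limma adjusted p = 0.000861), and was called with each library left out. MYBL2 and FOXM1, transcription factors of late cell cycle genes, had log2 fold changes of 0.44 (SE 0.09, limma adjusted p = 0.0130) and 0.20 (SE 0.05, limma adjusted p = 0.0206). MYBL2 was not called without NC replicate 3 or miR-21-3p replicate 1 (highest adjusted p 0.0662), nor FOXM1 without NC replicate 1 or 3 or miR-21-3p replicate 1 or 3 (highest adjusted p 0.116) or with a replicate block (0.0547). The count of 3 lay between 1 without NC replicate 3 or miR-21-3p replicate 1 (1.01% and 1.10% of all genes) and 6 without NC replicate 2 (11.3%). The part of cell cycle state in the kinesin result was not tested.

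Light chains, adaptors, dynein and dynactin work with transport kinesins. Of 17 kinesin light chains and cargo adaptors, limma called 0 higher and 1 lower (5.9%, against 4.85% of all genes tested), with a median log2 fold change of -0.06. KLC4, a kinesin-1 light chain, read 1210, 1040 and 1110 in NC and 951, 1000 and 913 in miR-21-3p cells (-0.23, SE 0.07, limma adjusted p = 0.0394), with NC replicate 2 the lowest control. Of 18 subunits of dynein, the motor that runs the other way, and of its activator dynactin, limma called 1 higher (5.6%, against 6.25% of all genes tested) and 0 lower, with a median of 0.06. ACTR1A, the actin-related filament of dynactin, read 2680, 2610 and 2610 in NC and 2930, 2850 and 3030 in miR-21-3p cells (0.16, SE 0.05, limma adjusted p = 0.0406). Both KLC4 and ACTR1A lost their call without NC replicate 1 or 3 or miR-21-3p replicate 1 or 3 (highest adjusted p 0.147 for KLC4 and 0.155 for ACTR1A) and with a replicate block (0.0687 and 0.110). With 1 library left out, the light chain and adaptor list had between 0 and 2 lower calls and the dynein list between 0 and 2 higher calls. Both maxima, and 1 higher call in the light chain and adaptor list, came without NC replicate 2, where 11.3% of all genes were called higher and 9.39% lower.

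**Figure D5:**
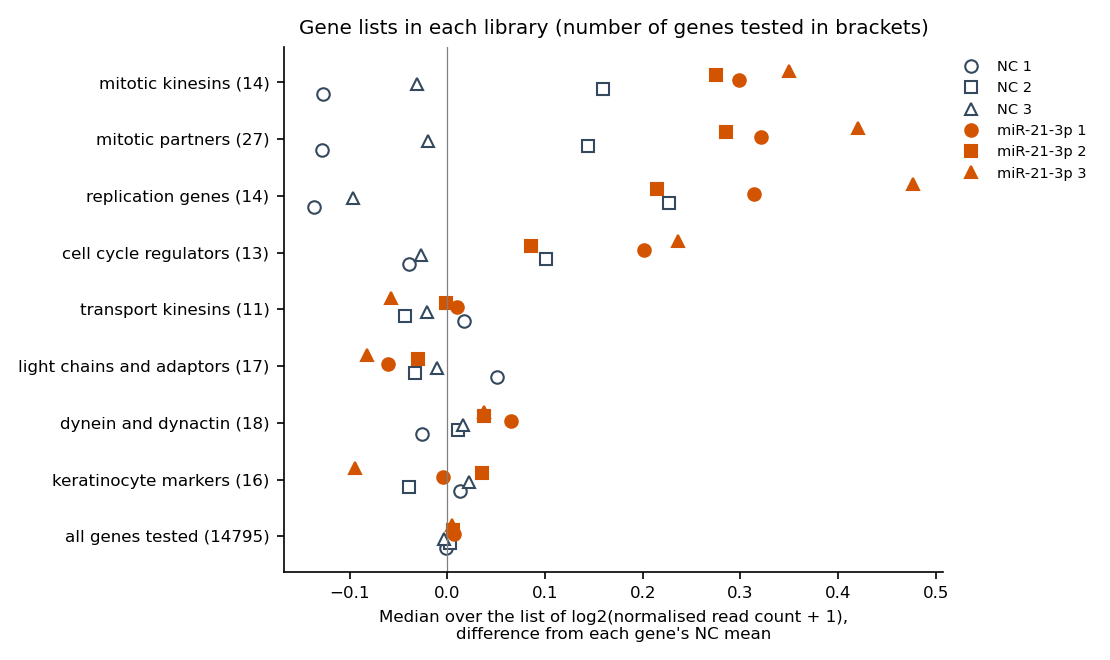
Median over each gene list of log2(normalised read count + 1), as the difference from each gene's NC mean, in each of the 6 libraries (open symbols NC, filled symbols miR-21-3p). Mitotic kinesins, mitotic partners and replication genes place NC replicate 2 above the other controls, at 0.16, 0.14 and 0.23, and for replication genes above miR-21-3p replicate 2, while all 6 libraries lie within 0.01 of 0 for all genes tested.

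Keratinocyte markers summed to 471913, 445100 and 467966 normalised reads in NC and to 461731, 479475 and 443702 in miR-21-3p cells, and the groups overlapped. Of the 16 tested, limma called 2 higher (KRT6A and SFN; 12.5%, against 6.25% of all genes tested) and 3 lower (EGFR, ITGB4 and LAMA3; 18.8%, against 4.85%). Only KRT6A among these 5 was called with each library left out, and EGFR, ITGB4 and SFN were not called with a replicate block (adjusted p = 0.0718, 0.0687 and 0.134). The lower calls of the list numbered 5 without NC replicate 2 (9.39% of all genes tested) and 3 without miR-21-3p replicate 2 (4.6%). Without any 1 of the other libraries they numbered 0 (0.731% to 1.76% of all genes). The higher calls numbered 2 without NC replicate 2 (11.3% of all genes) and 1 in each other such fit (1.01% to 6.39%). Of the markers of other cell types, few had values. COL1A1 alone of 6 fibroblast markers read 560, 390 and 478 in NC and 372, 378 and 364 in miR-21-3p cells, without overlap, and was not called except as lower without NC replicate 2 (adjusted p = 0.000985). MITF, the more abundant, and PMEL of 6 melanocyte markers summed to 631, 630 and 640 in NC and to 586, 616 and 585 in miR-21-3p cells, without overlap, and neither was called. CD14 alone of 6 immune markers read from 58.7 to 92.2, overlapped and was not called. VWF and CDH5 of 6 endothelial markers summed to 1197, 1087 and 1119 in NC and to 877, 925 and 883 in miR-21-3p cells, without overlap. VWF, the more abundant, was not called and CDH5 was called lower (log2 fold change -1.30, SE 0.19, limma adjusted p = 0.00584). MAP2, ENO2 and SYP of 6 neuronal markers summed to 1362.4, 1376.5 and 1274.7 in NC and to 1382.6, 1441.6 and 1363.4 in miR-21-3p cells, which overlapped. MAP2, the most abundant, was not called and ENO2 was called higher (log2 fold change 0.40, SE 0.10, limma adjusted p = 0.0242), though not without NC replicate 3 or any 1 of the 3 miR-21-3p libraries (highest adjusted p 0.121). The part of these markers in the kinesin result was not tested.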

How the data were processed

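HaCaT cells received a miR-21-3p or NC mimic, and polyA RNA was sequenced from stranded libraries, 3 per group, by the sample labels. The methods of the article speak of small RNA libraries instead; the labels were followed. Per the labels, the submitters' processing notes name bcl2fastq 2.18.12, cutadapt 1.15, TopHat2 2.1.1, featureCounts of Subread 1.5.2 and DESeq2, and the genome build, annotation and strand setting are not given in the sources used here. The deposited values are a signal, gene read counts that the authors divided by a size factor per library and wrote with 3 significant digits. Below 100, 100.0% of values in each library were whole multiples of 1 read (tolerance 0.1 read), so reads were recovered (24.4 to 28.0 M (mega) reads per library), exactly there and within rounding above. Genes of low level had rows for only part of the gene ID range.

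The test planned for counts was replaced by the one planned for normalized values, limma 3.58.1 (trend, robust) on log2(value + 1), in R 4.3.3, with the 14795 genes at 10 or more in at least 3 libraries, group as the only term, Benjamini-Hochberg over all of them and calls at an adjusted p below 0.05. Fold changes are on the log2(value + 1) scale. It was tested on simulated data. Alternatives were edgeR 4.0.16 (TMM, RLE, upper quartile), DESeq2 1.42.0 and limma-voom on recovered reads, other filters and pseudocounts, a replicate block, each library left out and other classes. The limma fits on TMM and upper-quartile scaled values were added after seeing the data.

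The kinesins, their classes and the other lists (mitotic partners, replication genes, cell cycle regulators, light chains and adaptors, dynein and dynactin, cell type markers) were chosen with earlier results of these data known. Named were every called kinesin, the uncalled mitotic and the 3 most abundant uncalled transport kinesins, and kinesins whose call changed with a setting. From each other gene list, the called genes of smallest adjusted p were named, at most 3, with CENPE and the uncalled mitotic partners. From each marker list, every called marker and the most abundant marker were named. Exons of 16 of the 32 kinesins share bases with a gene on the opposite strand in GENCODE release 29 (over 10% of exon bases in 6: KIF7, KIF9, KIF22, KIF27, KIFC1 and KIFC2), and 2, KIF1B and KIF2A, share bases on their own strand. Their values are uncertain to that extent.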

Additional observations from a re-analysis of the deposited data

How the results depend on the processing

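Across the 12 settings that kept all libraries, 11 of the 13 kinesin calls held in each, the median of the mitotic class stayed between 0.29 and 0.31, and no called kinesin changed sign. KIF2A was called in 3 of the 12. Counts of reads recovered from the values gave 12 kinesins higher by edgeR, with 900 genes higher and 788 lower over all genes, and 12 by DESeq2 and limma-voom. With upper-quartile scaling more genes were lower than higher (845 against 812 by edgeR, 816 against 809 by limma), so the majority direction over all genes depends on the scaling, while 12 kinesins stayed called higher. Without KIF2A in the mitotic class and KIFC2 and KIFC3 in the transport class, 11 mitotic kinesins were called and the medians were 0.33 and -0.01. Whether the replicate numbers pair the libraries was not settled. Same-numbered libraries had correlations of deviations of -0.002, -0.199 and -0.161 across genes. The range of such values with or without pairing was not tested, so they cannot decide it. With the replicate block, 609 genes were called higher (924 without it), 481 lower and 11 kinesins higher. With 1 library left out, kinesins called higher ranged from 2 to 14, mitotic kinesins called from 1 to 13, all genes called higher from 149 to 1668 and all genes called lower from 108 to 1387, with the fewest without NC replicate 3 and the most without NC replicate 2. These fits had 1 library fewer; which property of each library moved the counts was not tested. The 5 kinesins that changed sign in such fits were not called in any: KIF1C ranged from -0.0621 to 0.0014, KIF7 from -0.0246 to 0.1947, KIFC3 from -0.0099 to 0.10, KIF3B from -0.0367 to 0.0183 and KIF9 from -0.23 to 0.19. The limit set by depth was not tested; KIF6 and KIF9, with normalised values under 100, had the largest standard errors, 0.18 and 0.21.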

Other observations

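A pair of marker genes of other cell types were called by limma, chosen here after their values were seen. CDH5 (VE-cadherin), an adhesion molecule of endothelium, read 477, 286 and 393 in NC replicates 1, 2 and 3 and 165, 178 and 122 in miR-21-3p replicates 1, 2 and 3, a log2 fold change of -1.30 (SE 0.19, limma adjusted p = 0.00584). Every miR-21-3p library lay below every control. It was called with each library left out. ENO2, neuronal enolase, read 208, 192 and 170 in NC and 240, 254 and 259 in miR-21-3p cells (log2 fold change 0.40, SE 0.10, limma adjusted p = 0.0242), also without overlap, and was not called without NC replicate 3 (adjusted p = 0.121), miR-21-3p replicate 1 (0.0757), 2 (0.05046) or 3 (0.0932).

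Across all genes tested, the deviations of NC replicate 2 from its group mean were correlated with those of miR-21-3p replicate 3 (r = 0.267, across genes, which are not independent replicates). This is the largest of 9 pairs of libraries across the groups, picked after all were seen, and the others lay between -0.199 and 0.128; the range to be had with no relation was not tested. These libraries held the highest value of their group for 13 and 10 of the 14 mitotic kinesins, and for 36.9% and 36.8% of all genes tested. The part of this correlation in the kinesin result was not tested.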
